A study of Mus musculus with 9 samples.

Results

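Feed K and feed B were compared in the jejunum, the middle stretch of the small intestine, of OF1 mice, an outbred stock. The array files of the 3 mice labelled feed K and the 3 labelled feed B were taken, 6 of the 9 arrays of the series, and the mice are called K1, K3, K4 and B7, B8, B10 after the numbers in their labels. All 6 were males aged 7 weeks, of the third generation raised on the same feed, offered without restriction. The labels give the feeds as letters only, so what set K apart in composition from B is not given in the sources used here, although the study asked whether a custom maize diet changed gene expression in the gut, and neither feed is called a control below. Every mouse gave 1 array, hybridized with RNA from a piece of the whole intestinal wall cut from around the midpoint of the small intestine. The mice were sampled after a short fast in the light phase, and the time of day was not randomized between feeds, so that feed and hour of sampling cannot be told apart in any difference given here. Whether mice of one feed were littermates or shared a cage is not given in the sources used here, and the p-values measure only the spread between these mice.

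Of 15674 genes named by a symbol on the array, 8568 were tested. A gene was tested where its signal was at least 3 times its own noise, called detected here, on 3 or more of the 6 arrays. Values are log2 signals after quantile normalization, which gives all arrays one distribution, and they are always listed in the order B7, B8 and B10, then K1, K3 and K4. A difference is feed K minus feed B on the log2 scale, so that 1 is a 2-fold higher signal on feed K. Symbols are current ones, with the symbol of the array in parentheses where it differs.

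The jejunum takes up most of the sugar, amino acids and fat of a meal. Its villi are lined by absorptive enterocytes, whose brush border carries digestive enzymes and transporters, and the crypts between them hold stem cells and Paneth cells, which secrete antimicrobial proteins. The wall also holds enteroendocrine, immune, stromal, muscle and nerve cells. Enterocytes of the small intestine are among the few epithelial cells that can carry MHC class II, the molecules that present peptides to helper T cells, and interferon gamma from lymphocytes is the best known inducer of that pathway.

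The number of arrays limited what could be called. The median standard error of a gene's difference was 0.29, so that a typical gene needed a difference of 0.70, or 1.63-fold, to reach an unadjusted p of 0.05 in limma's test. To be first in the ranking and pass an adjusted p of 0.05 it needed 3.94, or 15.4-fold. Between 432 and 1045 of the 33012 probe spots on an array carried a failed flag and were left out. The share of the remaining spots that were detected averaged 44.6% ± 3.92 (SD, n = 3) for the mice fed K, and for those fed B it was 38.6% ± 5.22 (SD, n = 3) (exact permutation test, two-sided, p = 0.3, where the smallest possible is 0.1). K3 had the highest share, 49.1%, and B8 the lowest, 34.1%. Of the genes tested, 77 were detected on all 3 arrays of feed K and none of feed B, and 5 the other way round. Their difference in signal and the difference in detection between arrays move together, and the part of the latter was not tested.

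In limma 0 genes had an adjusted p below 0.05. Without adjustment 288 genes, 3.36% of those tested, were higher on feed K at p below 0.05 and 124, or 1.45%, were lower. These are the background shares for the counts below. The 3 values of feed K lay all above those of feed B in 525 of the 8531 genes with a value on every array, 6.15%, and all below in 315, 3.69%. The median difference over all genes was 0.05, and 57.1% of the differences were above 0. Where arrays were scaled to their medians instead, there were 701 higher and 33 lower genes and the median difference was 0.42, a shift of 0.37, and the values of the series table gave 341 and 68 with a median of 0.23. Differences near the median therefore have no settled sign, and the lists below are read against the median of all genes. Apart from Tmem14c, at 0.110, all genes had an adjusted p of 0.960 or more, and every gene called higher or lower below is so at an unadjusted p below 0.05 unless its interval is given.

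**Figure D1:**
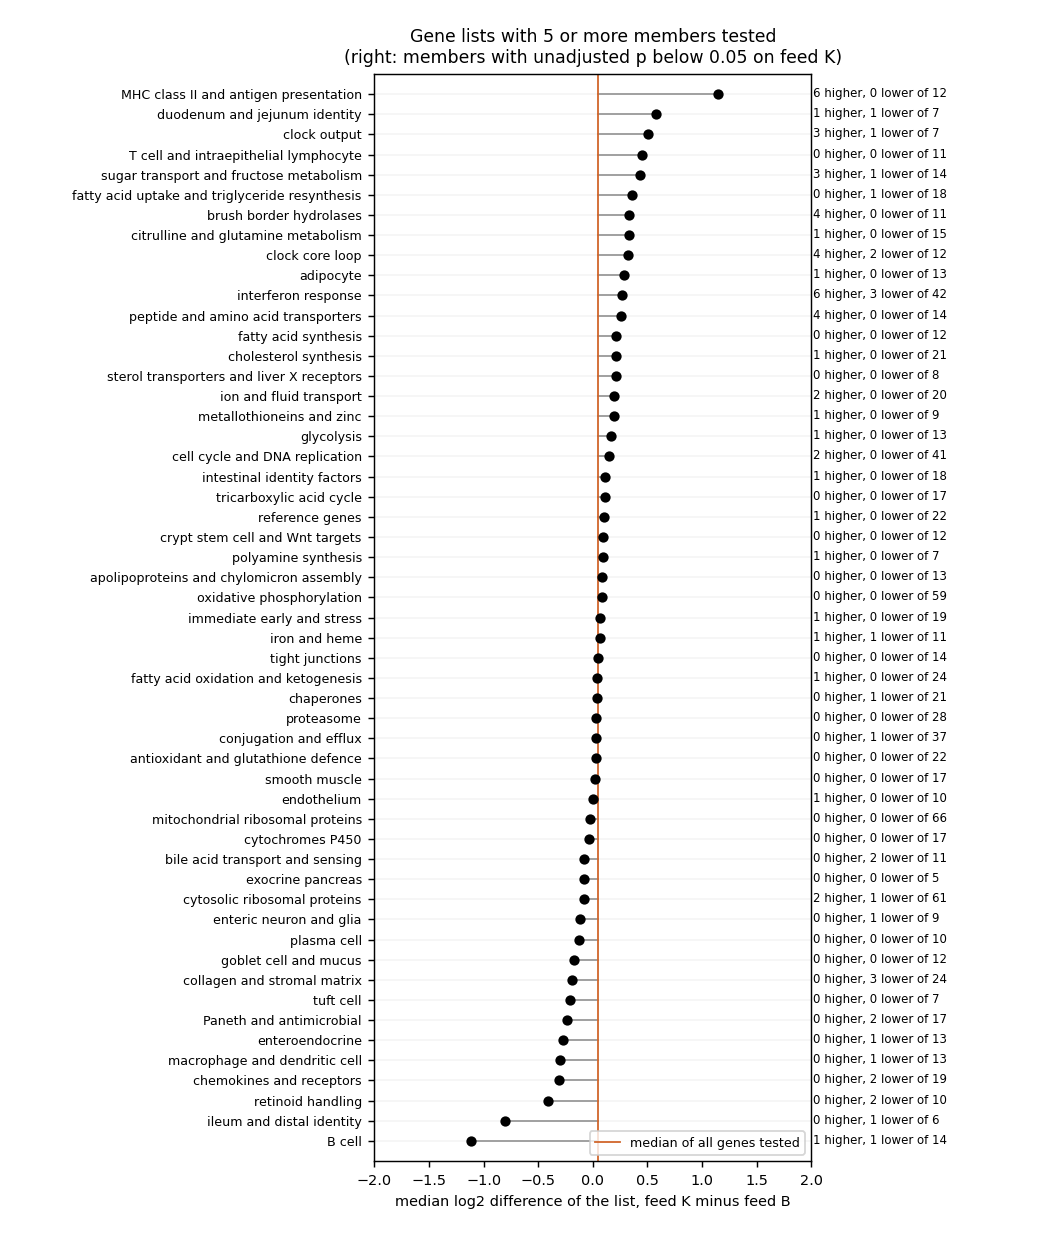
Median log2 difference, feed K minus feed B, of each gene list with 5 or more members tested (points), joined by a thin line to the median of all genes tested, 0.05 (vertical line), with the counts of members at an unadjusted p below 0.05 on the right. The antigen presentation list lies farthest to the right at 1.15 and the B cell list farthest to the left at -1.11, while most metabolic lists lie close to the line.

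Tmem14c, a protein of the inner mitochondrial membrane needed for heme synthesis, had the smallest p of all genes tested. Its values were 8.36, 8.88 and 9.06 on feed B and 11.76, 11.84 and 11.54 on feed K. All mice on feed K stood far above all mice on feed B, with little spread within either feed. The difference was 2.94 (SE 0.25), a 7.7-fold higher signal, with an adjusted p of 0.110 in limma, and it stayed between 2.74 and 3.09 whichever mouse was left out. It passed at an adjusted p of 0.0106 where only genes detected on all 6 arrays were tested, at 0.0323 with dim signals raised to a floor and at 0.00475 with a trended and robust variance, within a range of 0.00475 to 0.9998 over all 17 alternatives in limma. The paper listed Tmem14c among its candidate reference genes for the jejunum, from a meta-analysis that included the arrays of this series. That listing is therefore not independent of the values given here. In its quantitative PCR the whole range of this gene over OF1 mice was narrower than the fold difference given here, and the paper marked an OF1 sample as an outlier of lower expression. Whether those were the same mice is not given in the sources used here. Other genes of iron and heme handling were near the background. Of 11 tested members of that list 1, Tmem14c, was higher and 1 lower, with a median of 0.06 against 0.05 for all genes. The lower one, not called with median scaling or the series table, was Slc40a1, ferroportin, which exports iron from the enterocyte into blood, with 9.98, 9.73 and 9.92 on feed B and 9.31, 9.21 and 9.24 on feed K and a difference of -0.62 (SE 0.18).

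Ubd, a ubiquitin-like protein also known as FAT10 and induced by interferon gamma, had the largest difference of the genes named by the ranking. Its signals were 10.93, 9.69 and 9.78 on feed B and 13.57, 14.39 and 12.72 on feed K. Every mouse on feed K was well above the highest mouse on feed B. The difference was 3.43 (SE 0.52), or 10.8-fold, with a 95% interval from 2.17 to 4.68. Several other genes at the top of the ranking were dim. Zfp788 (2810426N06Rik), a zinc finger protein, 2310067E19Rik, Bmp8b, a growth factor of the bone morphogenetic protein family, and Taf5l, a subunit of a histone acetyltransferase complex, were detected on all 3 arrays of feed K and none of feed B. For such genes the feed with no detection has no reliable signal. On each array that signal was taken as the higher of the gene's own signal and the lowest signal among detected probes. Against it feed K was 4.16-fold higher for Zfp788, 3.46-fold for 2310067E19Rik, 3.72-fold for Bmp8b and 2.49-fold for Taf5l. These folds are not lower bounds, since a spot with more noise can stay undetected at a higher signal. All of these genes passed the detection filter through feed K alone. Vps33b, which acts in vesicle fusion, and Pknox1, a homeobox factor, were higher by 1.63 (SE 0.33) and 1.63 (SE 0.34).

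Genes of antigen presentation had the highest median of all lists. Of 12 tested members of the list for MHC class II and antigen presentation, 6 were higher on feed K and 0 lower, against 3.36% and 1.45% of all genes, and the median difference was 1.15. H2-Aa, the alpha chain of the class II molecule I-A, measured 13.07, 11.82 and 12.79 on feed B and 14.72, 15.99 and 14.37 on feed K. The lowest mouse on feed K, K4, exceeded the highest on feed B, B7, and the difference was 2.46 (SE 0.52), or 5.51-fold. Cd74 (Ii), the invariant chain that guides class II molecules to the peptide-loading compartment, had 14.62, 12.70 and 14.24 on feed B and 16.21, 16.53 and 15.75 on feed K. The feeds were again apart, by a difference of 2.31 (SE 0.53). H2-Eb1, the beta chain of I-E, had 14.15, 13.04 and 13.83 on feed B and 15.12, 15.34 and 14.39 on feed K, a narrower gap, and a difference of 1.28 (SE 0.39). A spot named for both H2-Ab1, the partner of H2-Aa, and Rmcs1 (H2-Ab1;Rmcs1) stood outside the list because of its joint name. It read 12.72, 11.15 and 11.78 on feed B and 14.04, 14.41 and 14.06 on feed K, with all mice on feed K higher and a difference of 2.29 (SE 0.41).

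B8 was the lowest mouse for all 4 of these class II spots and K3 the highest. With any 1 mouse left out, the differences of H2-Aa, Cd74, H2-Eb1 and the H2-Ab1 spot were at least 1.98, 1.73, 0.96 and 1.92. The count of higher members, 6 of 12, went down to 3 without K3 and lay between 5 and 8 without any other mouse. Other class II genes were less even. H2-Ea, the alpha chain of I-E, differed by 1.93 (SE 0.84) with a 95% interval from -0.10 to 3.96, and H2-DMa, part of the peptide exchange factor, by 1.48 (SE 0.72) with an interval from -0.26 to 3.22, both with overlapping groups. Ciita (C2ta), the master regulator of class II transcription, was detected in 0 mice on feed B and 1 on feed K and could not be compared.

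Among class I genes, H2-T23, which encodes the nonclassical molecule Qa-1, had 9.87, 8.58 and 9.58 on feed B and 10.29, 12.75 and 12.22 on feed K. K1 lay close to the upper mice on feed B while K3 and K4 were far above, and the difference was 2.41 (SE 0.69). H2-Q1 and H2-Q2 were higher by 1.02 (SE 0.32) and 0.84 (SE 0.26). The class I genes are close copies of one another, and their probes may share signal. B2m, the light chain that all class I molecules share, differed by 0.33 (SE 0.25), with a 95% interval from -0.27 to 0.94.

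**Figure D2:**
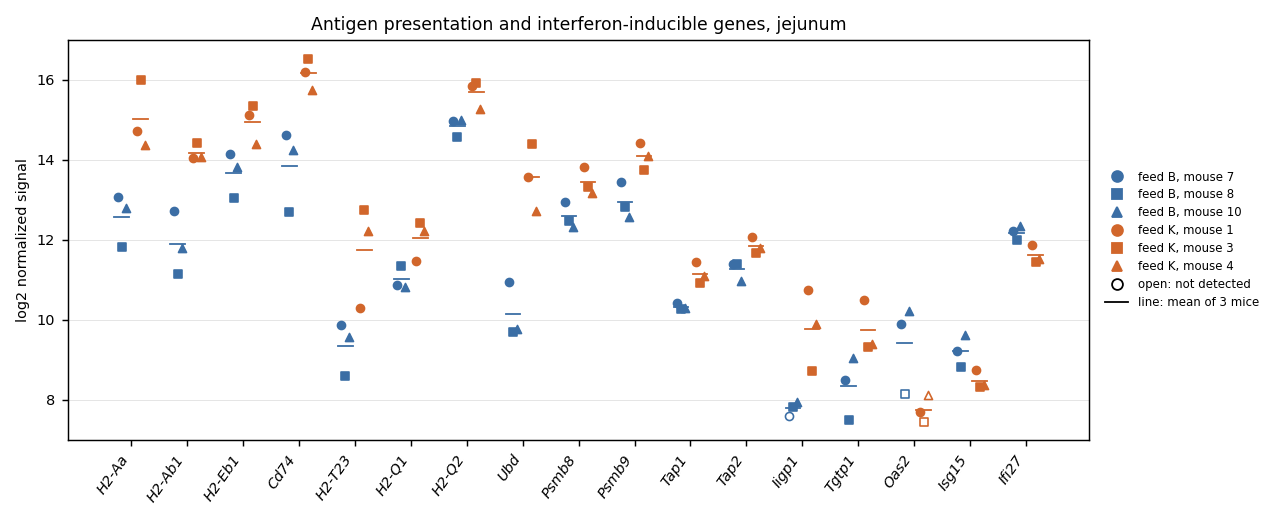
Log2 signal of genes of antigen presentation and the interferon response in each mouse (points) with the mean of each feed (short lines) and open symbols where the gene was not detected; H2-Ab1 is the spot also named for Rmcs1. For the class II genes and Ubd the 3 mice on feed K lie above the 3 on feed B, and B8 is the lowest mouse of H2-Aa, Cd74 and H2-Eb1.

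The promoters of class II genes carry a shared set of elements, the X, X2 and Y boxes, bound by the complex that Ciita joins. Interferon-stimulated response elements (ISRE) and gamma-activated sequences (GAS) are the elements read by the factors that interferons switch on. The letters searched on both strands were CCAAT for the Y box, GNNAC directly followed by NGATG for the core of the X box, TGACGTCA for X2, GAAA, NN and GAAA in a row for the ISRE and TTCNNNGAA for GAS, where N is any base, and matches may overlap. They stand in 37.4%, 2.97%, 1.79%, 3.44% and 8.3% of 32851 mouse promoters of RefSeq (build GRCm38.p6), each taken as the 300 bases around the gene's start. A promoter was found for 9 of the 12 tested antigen presentation genes, of which 7, 2, 1, 3 and 0 held the motifs in that order, and for 31 of the 42 tested interferon response genes, of which 13, 2, 0, 17 and 8 did. The background shares count single promoters, whereas a listed gene was counted if any of its promoters matched. The list counts and those shares are therefore in unlike units. The 4 promoters below are shown because the differences of their genes had opposite signs in the main setting. H2-Aa, H2-Eb1 and Tgtp1 were higher on feed K. Isg15 was lower only as the mean of 2 probes, of which the detected one overlapped between feeds. Both probes had a negative difference, but the other was detected on no array, so the direction of Isg15 is not settled. Capitals mark the matched letters, as they read on the gene's strand, and a match is no proof of binding. H2-Aa lies at chr17:34287774-34288073 on the minus strand, with an X2 match at -74 from the gene's start and a Y box match at -48. H2-Eb1 lies at chr17:34305617-34305916 on the plus strand, with an X core match at -91 and Y box matches at -59 and -35. Tgtp1 lies at chr11:48992197-48992496 on the minus strand, with a GAS match at -88 next to an ISRE match at -77. Isg15 lies at chr4:156200769-156201068 on the minus strand, with 3 overlapping ISRE matches at -78, -72 and -66.
H2-Aa: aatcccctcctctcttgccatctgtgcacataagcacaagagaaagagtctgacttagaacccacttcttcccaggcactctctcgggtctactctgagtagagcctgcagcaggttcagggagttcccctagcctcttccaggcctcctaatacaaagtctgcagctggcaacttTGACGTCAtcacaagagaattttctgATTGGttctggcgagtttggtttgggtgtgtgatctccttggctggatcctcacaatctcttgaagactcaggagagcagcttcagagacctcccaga
H2-Eb1: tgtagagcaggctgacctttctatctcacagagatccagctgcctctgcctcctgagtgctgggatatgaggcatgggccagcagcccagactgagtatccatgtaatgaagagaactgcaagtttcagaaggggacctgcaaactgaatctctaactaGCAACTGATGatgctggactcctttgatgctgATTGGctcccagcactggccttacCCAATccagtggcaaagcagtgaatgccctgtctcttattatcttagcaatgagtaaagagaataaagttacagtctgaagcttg
Tgtp1: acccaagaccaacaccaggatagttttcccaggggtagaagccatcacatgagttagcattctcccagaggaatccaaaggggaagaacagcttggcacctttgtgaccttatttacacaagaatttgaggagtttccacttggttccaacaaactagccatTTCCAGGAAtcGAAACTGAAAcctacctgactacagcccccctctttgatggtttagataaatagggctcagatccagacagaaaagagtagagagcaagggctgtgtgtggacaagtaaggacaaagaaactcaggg
Isg15: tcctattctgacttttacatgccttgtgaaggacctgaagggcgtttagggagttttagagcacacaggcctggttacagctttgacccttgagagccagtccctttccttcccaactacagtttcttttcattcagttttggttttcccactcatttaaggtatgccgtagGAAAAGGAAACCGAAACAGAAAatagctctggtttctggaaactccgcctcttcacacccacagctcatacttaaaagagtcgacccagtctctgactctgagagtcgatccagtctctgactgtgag

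The interferon response list was mixed. Of its 42 tested members 6 were higher and 3 lower, and the median was 0.27. The higher ones included genes best known as targets of interferon gamma. Iigp1 (AW111922), a GTPase that attacks the vacuoles of intracellular parasites, had 7.58, 7.83 and 7.95 on feed B and 10.73, 8.72 and 9.89 on feed K, with a difference of 1.99 (SE 0.50) and no overlap. Psmb9 and Psmb8, the inducible subunits of the immunoproteasome, which cuts peptides for class I, were higher by 1.15 (SE 0.31) and 0.86 (SE 0.27). Tap1 and Tap2, the pair that forms the pump carrying those peptides into the endoplasmic reticulum, were higher by 0.82 (SE 0.21) and 0.59 (SE 0.23), and Tgtp1 (Tgtp), a T cell specific GTPase with a near-identical neighbour gene, by 1.40 (SE 0.50). Igtp and Gbp2, GTPases of the same response, and the chemokines Cxcl9 and Cxcl10 had differences of 1.38, 1.16, 1.88 and 1.18 with overlapping groups and intervals that reached below 0.

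The 3 lower members are better known as targets of type I interferon. Of the whole list 23 members had a positive and 19 a negative difference. The list was not sorted by type of interferon, and a split by type was not tested. Oas2, an antiviral RNA sensor, had 9.90, 8.15 and 10.21 on feed B and 7.69, 7.45 and 8.12 on feed K, all mice on feed K below those on feed B, and a difference of -1.67 (SE 0.55). Ifi27 (D12Ertd647e), an interferon-induced membrane protein, was lower by 0.57 (SE 0.22). Isg15 (G1p2), a ubiquitin-like modifier, differed by -0.73 (SE 0.27) as the mean of its 2 probes. The brighter of these probes read 12.40, 10.38 and 12.50 on feed B and 11.50, 10.50 and 11.06 on feed K, with overlap, while the other was not detected. The 2 probes differed by -0.74 and -0.73. With spots below their own noise left out, where the undetected probe counted on some arrays only, their mean differed by 0.22. The counts of this list also hung on single mice. Higher members numbered 4 without B8 or without K1, and lower members 8 without B8 and 0 without B7, B10 or K3. Without B8 the median of the list was 0.04.

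Markers of immune cells had no common direction. The tested B cell markers other than Cd74, which B cells share with other presenting cells, numbered 13, with a median difference of -1.20. Cd79a, a signalling chain of the B cell receptor measured by 2 probes, had 10.46, 9.97 and 10.42 on feed B and 7.46, 7.93 and 10.51 on feed K. K1 and K3 were low while K4 lay with feed B, so the groups overlapped, and the difference of -1.65 (SE 0.78) had an interval from -3.52 to 0.22. Of the 13 markers, 13, 8 and 13 were detected in B7, B8 and B10 and 5, 6 and 13 in K1, K3 and K4, and their summed signal on the log2 scale was 12.4 to 13.6 on feed B and 10.9 to 13.4 on feed K. In Cxcl13, the chemokine that draws B cells into follicles, the same 2 mice were low, with 11.65, 10.09 and 10.95 on feed B and 6.27, 6.70 and 10.67 on feed K and a difference of -3.02 (SE 1.17). Cxcr4, a chemokine receptor of lymphocytes, was detected in all 3 mice on feed B and in 0 on feed K. With undetected values set as above it was 3.9-fold lower on feed K, with the value of K3 missing for a failed flag. Without K4, 9 of the 14 tested markers including Cd74 were lower, and without any other mouse 1 or 0. The part of B cells in the values of the other genes was not tested.

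The T cell and intraepithelial lymphocyte list had 0 higher and 0 lower of 11 tested members and a median of 0.45, which was 0.00 without B8 and -0.02 without K3. Gzma, a granzyme of cytotoxic lymphocytes, had 9.70, 5.56 and 10.74 on feed B and 11.25, 13.13 and 8.29 on feed K, highest in K3, as the summed signal of the list was, at 11.5 to 13.6 on feed B and 11.9 to 15.3 on feed K. Among macrophage and dendritic cell markers 0 were higher and 1 lower of 13, with a median of -0.30. The lower one was Msr1, a scavenger receptor of macrophages, with 7.45, 7.47 and 7.32 on feed B and 6.02, 6.71 and 5.01 on feed K and a difference of -1.50 (SE 0.43). Where only genes detected on all 6 arrays were tested, 0 of 7 members were lower. With dim signals raised to a floor 1 was still lower, but the feeds lay apart for no member. The summed signal of that list was 17.6 to 18.0 on feed B and 17.2 to 17.8 on feed K. Mcpt2, a protease of mucosal mast cells with close relatives, was detected in 0 mice on feed B and 3 on feed K, so it passed the detection filter through feed K alone. It read 7.05, 5.06 and 6.56 on feed B and 8.07, 11.26 and 7.75 on feed K, with K3 far above the other mice. With undetected values set as above, feed K was 6.05-fold higher. Of 3 tested mast cell and eosinophil genes 1 was higher and 2 had a negative difference, with a median of -0.23. With B8 or B10 left out, with array weights, with dim signals raised to a floor or with spots below their own noise left out, 0 were higher. Since whole tissue was measured, fewer cells of a type and less RNA per cell cannot be told apart in any of these values.

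**Figure D3:**
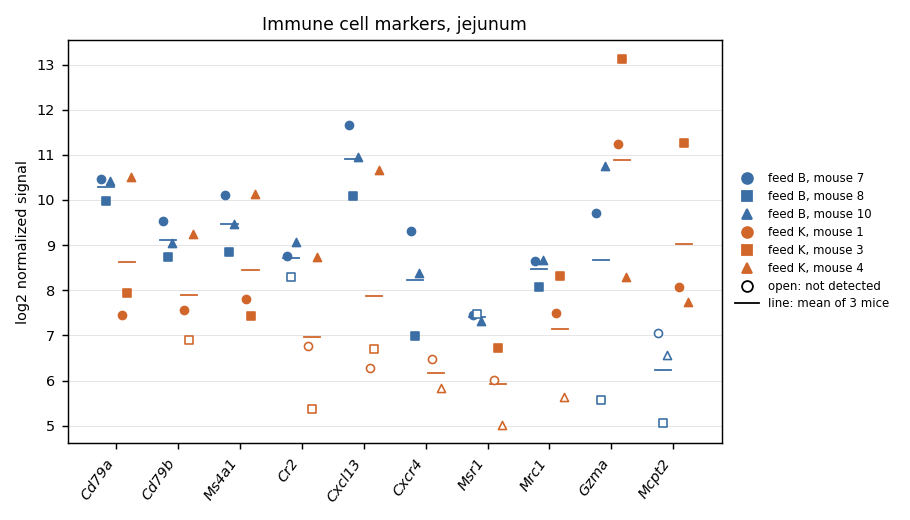
Log2 signal of markers of B cells, T cells, macrophages and mast cells in each mouse (points) with the mean of each feed (short lines) and open symbols where the gene was not detected. B cell markers are low in K1 and K3 but not in K4, and Gzma and Mcpt2 are highest in K3.

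Some sugar transporters of the enterocyte were higher on feed K. Of 14 tested members of the list for sugar transport and fructose metabolism 3 were higher and 1 lower, 13 had a positive difference, and the median was 0.43. Slc5a1, the sodium-glucose cotransporter SGLT1 of the brush border, had 14.83, 15.32 and 15.38 on feed B and 16.38, 16.28 and 16.28 on feed K. The 3 mice on feed K lay close together and above all of feed B, and the difference was 1.13 (SE 0.22), or 2.2-fold. Slc2a5, the fructose transporter GLUT5, had 12.70, 13.78 and 11.85 on feed B and 14.05, 14.06 and 14.41 on feed K and a difference of 1.40 (SE 0.48). Slc2a2, GLUT2, through which sugars leave the cell for the blood, was higher by 0.72 (SE 0.27). The lower member was G6pc, glucose-6-phosphatase, the last step of glucose release, at 11.84, 11.88 and 10.69 on feed B and 10.47, 9.49 and 8.92 on feed K. No mouse on feed K reached the lowest on feed B, and the difference was -1.85 (SE 0.50), so that the signal was 3.59-fold higher on feed B. Pck1, of the same gluconeogenic route, differed by 0.65 (SE 0.49) with an interval from -0.53 to 1.84, and Khk, the enzyme that commits fructose to metabolism, by 0.32 (SE 0.26) with an interval from -0.32 to 0.95. The count of higher members was 9 without B8, 2 without B10 or K3 and 1 without B7, K1 or K4.

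Some peptidases of the brush border and transporters of amino acids were higher too. Of 11 tested brush border enzymes 4 were higher and 0 lower, with a median of 0.34. Mme, neprilysin, had 11.71, 13.03 and 12.53 on feed B and 13.69, 13.94 and 13.11 on feed K and a difference of 1.16 (SE 0.40). Ggt1, which splits glutathione, was higher by 0.55 (SE 0.21), and Ace, angiotensin-converting enzyme, by 1.26 (SE 0.51), with overlap. The other peptidases Anpep, Dpp4 and Enpep did not pass the threshold, with differences of 0.30, 0.34 and 0.66. Without B7 or without K3 no brush border enzyme was higher at this threshold, 1 was without K1 and 2 without K4.

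Among 14 tested transporters of peptides and amino acids 4 were higher and 0 lower, with a median of 0.26. Slc43a2 (BC042513), a carrier of large neutral amino acids, had 8.13, 8.67 and 8.29 on feed B and 9.33, 9.52 and 9.64 on feed K. The feeds were well apart and the difference was 1.14 (SE 0.22). Slc36a1, a proton-coupled carrier of small amino acids, Slc6a6, the taurine transporter, and Slc16a10, which releases aromatic amino acids, were higher by 1.12 (SE 0.41), 1.02 (SE 0.36) and 0.60 (SE 0.25). Slc15a1, the peptide transporter PEPT1, differed by 0.29 (SE 0.24), with an interval from -0.29 to 0.88. Without B7, K3 or K4 the count was 1, and without K1 it was 2. Of 20 tested genes of ion and fluid transport 2 were higher and 0 lower, with a median of 0.20. These were Atp1b1, a subunit of the sodium pump that drives SGLT1, by 0.65 (SE 0.19), and Car2, carbonic anhydrase 2, by 1.11 (SE 0.32). Gata4, a transcription factor that holds the jejunal program of enterocytes, was higher by 0.95 (SE 0.31), the only one of 18 tested intestinal identity factors past the threshold in either direction.

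**Figure D4:**
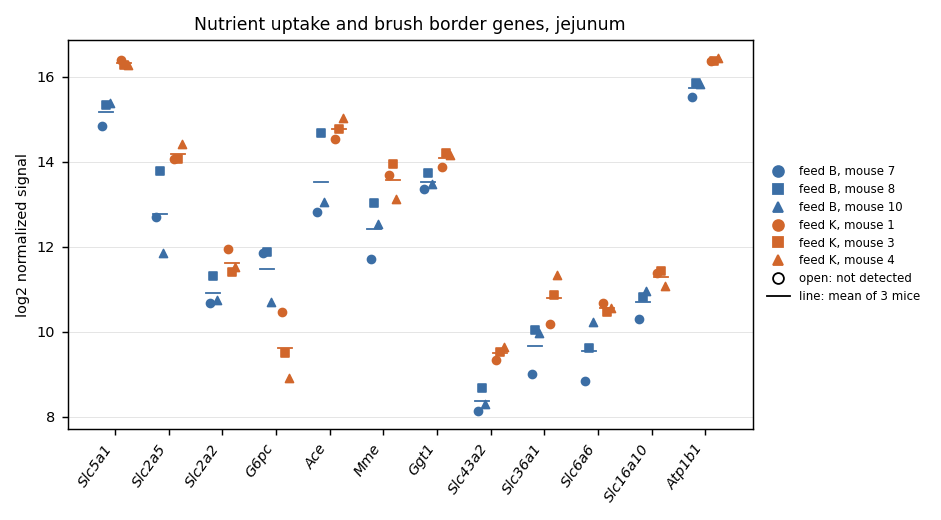
Log2 signal of sugar transporters, brush border peptidases, amino acid transporters and G6pc in each mouse (points) with the mean of each feed (short lines) and open symbols where the gene was not detected. The 3 mice on feed K lie above the 3 on feed B for Slc5a1 and Slc43a2 and below them for G6pc.

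Few genes of fat handling passed the threshold, and their counts moved with single mice. Of 18 tested genes of fatty acid uptake and triglyceride resynthesis 0 were higher and 1 lower, with a median of 0.36, and of 13 tested apolipoproteins and chylomicron assembly genes 0 passed in either direction, with a median of 0.09. Without B8, 3 members of each list were higher, and without B10, 2 of the uptake list, whose median ran from 0.13 without B7 to 0.52 without B8. The median of the apolipoprotein list ran from -0.07 without B7 to 0.26 without B8. The lower gene was Pnliprp2, a lipase related to pancreatic lipase, with 12.56, 11.04 and 11.83 on feed B and 10.54, 10.72 and 10.89 on feed K and a difference of -1.09 (SE 0.39). Fabp1 and Fabp2, the fatty acid binding proteins of the enterocyte, differed by 0.49 (SE 0.52) and 0.26 (SE 0.27), with intervals that spanned 0. Pparg, a lipid-activated nuclear receptor, was higher by 1.13 (SE 0.35), and its cell of origin in the whole wall was not resolved. Of 13 tested adipocyte markers 1 was higher and 0 lower, with a median of 0.29. That median ran from -0.14 to 0.95 with 1 mouse left out, and the part of attached fat tissue was not tested.

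Markers of Paneth and enteroendocrine cells had mostly negative differences after quantile normalization, which did not hold under median scaling. In the Paneth and antimicrobial list 15 of 17 tested members had a negative difference and 2 were lower at the threshold, with a median of -0.24. Itln1 (Itln), intelectin, a lectin of Paneth and goblet cells, had 15.79, 15.38 and 15.47 on feed B and 14.90, 14.50 and 14.57 on feed K. All mice on feed K were below those on feed B, and the difference was -0.89 (SE 0.22). Ang4, an angiogenin with bactericidal activity and close relatives, had 14.74, 14.11 and 15.58 on feed B and 13.73, 13.19 and 13.25 on feed K and a difference of -1.42 (SE 0.40). Lyz1 (Lzp-s), the lysozyme of Paneth cells, which shares much of its sequence with Lyz2, differed by -0.72 (SE 0.42) with an interval from -1.72 to 0.29. The lower members numbered 4 without B8, 3 without K1 and 2 without any other mouse. In the enteroendocrine list 12 of 13 tested members had a negative difference and 1, Tac1, the precursor of substance P, was lower, by 1.02 (SE 0.30). Its median was -0.27, and 3 were lower without B8 and 2 without K3. With median scaling the median was 0.42 for all genes, 0.12 for the enteroendocrine list and 0.42 below all genes for the Paneth list, so both lists stayed below all genes. The signs of the members turned, however, to 9 positive and 8 negative in the Paneth list and to 9 positive and 4 negative in the enteroendocrine list, and 0 members of either were lower. The series table gave 12 and 8 negative differences in the 2 lists, with 1 and 0 lower. Pyy, an appetite-reducing peptide, differed by -0.94 (SE 0.45) with an interval from -2.03 to 0.14.

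**Figure D5:**
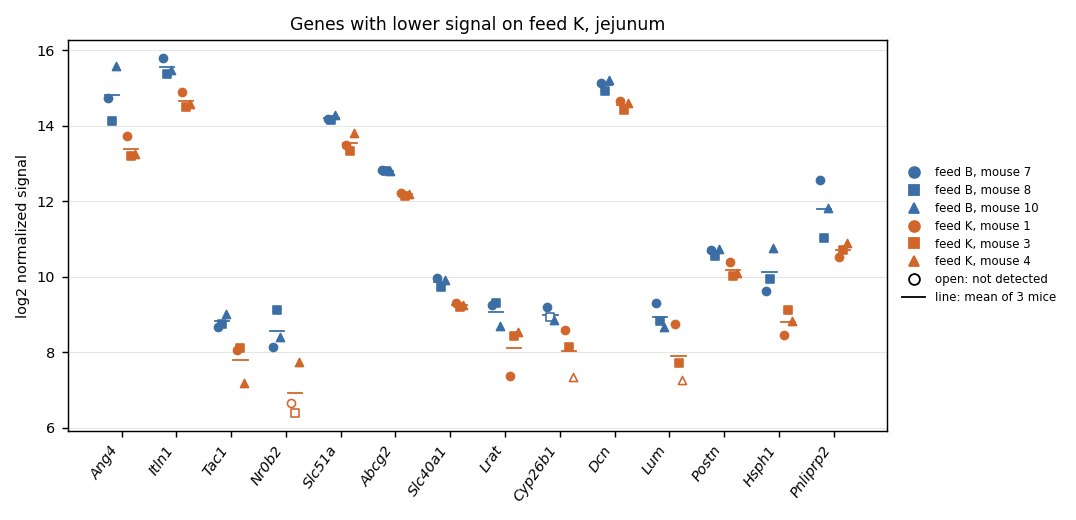
Log2 signal of genes with a lower mean on feed K in each mouse (points) with the mean of each feed (short lines) and open symbols where the gene was not detected. For every gene shown except Lum the 3 mice on feed K lie below the 3 on feed B.

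Single genes of retinoid and bile acid handling were lower. Lrat, which esterifies vitamin A for storage, and Cyp26b1, which degrades retinoic acid, had differences of -0.96 (SE 0.37) and -0.97 (SE 0.34). They were the 2 lower ones of 10 tested retinoid genes, whose median was -0.41, and 0 were lower without B7, 1 without B8, K1, K3 or K4, and 0 with median scaling or the series table. Rbp2, the retinol binding protein of the enterocyte, differed by 0.58 (SE 0.42) with an interval from -0.43 to 1.58. Nr0b2, the repressor SHP that bile acids induce through their receptor, had 8.15, 9.13 and 8.41 on feed B and 6.66, 6.39 and 7.75 on feed K. All mice on feed K lay below those on feed B, with a difference of -1.63 (SE 0.44). Slc51a (D630035O19Rik), a subunit of the exporter that passes bile acids to blood, was lower by 0.66 (SE 0.21). These were 2 of 11 tested bile acid genes, with a median of -0.08, close to that of all genes and of no settled sign, and 3 were lower without B8 and 1 without K1 or K3. Abcg2, an efflux pump of the brush border, had 12.82, 12.80 and 12.80 on feed B and 12.22, 12.14 and 12.19 on feed K and a difference of -0.63 (SE 0.17) that stayed between -0.64 and -0.60 with any mouse left out. It was the only member called among 37 tested genes of conjugation and efflux, of which 22 had a positive difference, with a median of 0.03, and with median scaling or the series table it was not called.

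A few stromal and nerve genes were lower. Of 24 tested genes of collagen and stromal matrix 3 were lower and 0 higher, with a median of -0.19, which median scaling turned to 0.23, below the 0.42 of all genes. These were the small proteoglycans Dcn and Lum and Postn, periostin, with differences of -0.52 (SE 0.19), -1.03 (SE 0.41) and -0.49 (SE 0.20). Without K1 there were 2, without B8 or K3 there was 1, and without B7, B10 or K4, or with median scaling or the series table, there were 0. The summed signal of this list was 16.4 to 16.9 on feed B and 16.1 to 16.6 on feed K. Stmn2, a neuronal microtubule protein, was lower by 0.73 (SE 0.18), 1 of 9 tested neuron and glia markers and 0 of them with median scaling or the series table.

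The ranking of lower genes was led by genes of no common list. Klk6 (Prss18), a secreted serine protease, had 8.83, 8.49 and 8.48 on feed B and 7.36, 7.62 and 7.60 on feed K and a difference of -1.07 (SE 0.20). Arnt2, a basic helix-loop-helix partner factor, differed by -1.39 (SE 0.30) and the complement regulator measured by 2 probes named for Daf1 and Daf2 by -1.03 (SE 0.23). Ica1, an islet autoantigen, and AI467606 had differences of -1.04 (SE 0.25) and -1.74 (SE 0.40). The matrix metalloproteinases Mmp11 and Mmp16 had differences of -1.20 (SE 0.30) and -1.33 (SE 0.35). Apip (Mmrp19), an enzyme of methionine salvage, differed by -1.32 (SE 0.35) and Hsph1 (Hsp105), a heat shock protein, by -1.31 (SE 0.35), the only one of 21 tested chaperones past the threshold. Atp2b3, a calcium pump of the plasma membrane, was detected in all 3 mice on feed B and in 0 on feed K. With undetected values set as above it was 2.2-fold lower on feed K.

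Genes of the circadian clock were higher and lower, and the lower calls depended on the scaling. Of 12 tested genes of the core loop 4 were higher, among them Per2, Nr1d2 and Nr1d1, by 2.16, 0.93 and 0.77. The 2 lower ones, Arntl, which encodes BMAL1, and its partner Npas2, differed by -0.76 and -1.44. The median was 0.32 for the core loop and 0.51 for 7 tested output genes. With 1 mouse left out, 2 to 4 of the core genes were higher, the fewest without B7 or K3, and 0 were lower without B7, B10, K3 or K4 and 1 without B8. Median scaling gave 7 higher and 0 lower core genes, 2 and 0 came from the series table and 5 and 0 from array weights, with Arntl and Npas2 still negative in each. Dbp, an output factor driven directly by the loop, read 10.37, 12.28 and 9.79 on feed B and 12.51, 12.96 and 13.39 on feed K, with all mice on feed K above feed B and a difference of 2.14 (SE 0.65). Of the output genes Dbp, Usp2 and Tef were higher, the latter by 1.18 and 1.37, and Nfil3, a repressor that opposes Dbp, was lower by 0.60 (SE 0.20). The higher output genes numbered 2 without B7, B10, K3 or K4 and 4 without K1, with median scaling or with the series table, and Nfil3 was no longer called without B7, B10, K3 or K4 or under either scaling. These genes cycle over the day in most tissues, and the hour of sampling, which was not recorded in the labels, cannot be told apart from the feed.

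The markers of the labelled tissue were present, and markers of the ileum ranged widely. Fabp1 and Fabp2 were detected on all 6 arrays, and none of the 10 stomach genes with a probe was tested, 7 of them detected on no array. Fabp6, the ileal bile acid binding protein, ran from 4.66 in B8 to 17.67 in B10 within feed B, and read 8.73, 12.01 and 11.63 on feed K. Its difference of -1.85 (SE 3.29) turned to 0.66 without B10. Of the 6 tested markers of the ileum 1, Slc51a, was lower and 0 higher, with a median of -0.80, and Slc10a2, the ileal bile acid transporter, differed by -1.23 (SE 1.15) with an interval from -4.00 to 1.54. Without B10 the median of the list was 0.01, and 4 were lower without B8 and 0 without K1. Among 7 tested markers of duodenum and jejunum 1, Gata4, was higher and 1, Slc40a1, lower, with a median of 0.58. That median was 0.11 without B10 and 0.94 without B8, where 4 were higher, and 0 were higher without B7, K1 or K3. The part of the position of the cut in the values above was not tested.

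Several large lists held no member past the threshold. None of the tested genes was past the threshold in either direction among 59 of oxidative phosphorylation, 66 mitochondrial ribosomal proteins, 28 of the proteasome, 22 of antioxidant defence, 17 cytochromes P450, 14 of tight junctions and 12 of goblet cells and mucus. Their medians lay between -0.17 and 0.08. With any 1 mouse left out or with median scaling, at most 2 members of any of these lists passed in one direction, except for the cytochromes P450. Of those, 3 were higher without B8, with a median of 0.42, 1 was higher and 5 lower without B10, with a median of -0.23, and 3 were higher with median scaling. Of 61 tested cytosolic ribosomal proteins Rpl11 and Rps21 were higher and Rpl37a lower, 2 and 1, with a median of -0.08. Rpl11 differed by 0.73 (SE 0.19) and Oaz1, an inhibitor of polyamine synthesis, by 0.89 (SE 0.25). Each had a bright probe that did not differ and a dim probe that did. Their means turned sign with spots below their own noise left out, where the dim probe counted on some arrays only. The bright probe of Rpl37a differed by -0.05 and its dim probe, detected on 0 arrays, by -1.32. With the brightest probe of each gene 1 cytosolic ribosomal protein was higher and 0 lower. At the median standard error of 0.29 a difference smaller than 1.63-fold did not reach the unadjusted threshold, and genes with a smaller error were called at smaller differences.

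Feed G, the remaining group, is given as a description only, on values normalized over all 9 arrays. Its mice G4, G8 and G11 read 11.08, 12.20 and 8.20 for Ubd. H2-Aa read 14.09, 12.90 and 11.16 and Slc5a1 16.68, 16.62 and 15.72. G11 was the lowest of the 3 mice for Ubd and H2-Aa.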

How the data were processed

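Jejunum RNA of single mice was hybridized to Applied Biosystems chemiluminescent arrays. The deposited array files give, per spot, the authors' signal intensity, corrected for background and spatial trends by the scanner software, and as scores its ratio of signal to noise and a flag. The deposited series table holds the scanner software's assay-normalized intensity of the same spots, linear and not centred, with its divisor not given in the sources used here, and served as an alternative. Spots of gene probes, not controls, were kept unless their flag exceeded 5000. Their intensity was then quantile-normalized across the 6 arrays with the mean, log2-transformed and averaged by gene symbol. Genes with a ratio of at least 3 on 3 or more arrays entered limma (R 4.3.3, limma 3.58.1, Python 3.11.15), with Benjamini-Hochberg adjustment over 8568 genes, two-sided; the procedure was tested on simulated data. The number of arrays limits the precision. Named genes were, per direction, the 12 with the smallest p among those with no overlap and a log2 difference of at least 1 that were detected on all arrays of the brighter feed, up to 4 per list, those detected on all arrays of only one feed, and the clock genes. Anpep, B2m, Cxcl9, Dpp4, Enpep, Gbp2, H2-DMa, H2-Ea, H2-Q1, H2-Q2, Ifi27, Igtp, Isg15, Khk, Lyz1, Oas2, Pck1, Slc15a1, Tap2 and Tgtp1 were chosen after their values were seen. Members and lists were chosen with earlier results of these data known. In the alternatives the scaling, the probe and flag filters, the detection filter, the handling of dim spots, the variance model and the mice included were changed, 1 at a time. Some genes that the rule names are not reported here.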

Additional observations from a re-analysis of the deposited data

How the results depend on the processing

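With only genes detected on all 6 arrays, with dim signals raised to a floor at percentile 5, or with a trended and robust variance, 1 gene, Tmem14c, passed an adjusted p of 0.05, and with every other alternative 0 did. The count of higher genes, 288, was 701 with median scaling, 459 with no filter on dim genes and 498 with array weights, and ranged from 151, without K1, to 688, without B10, with 1 mouse left out. The count of lower genes, 124, was 33 with median scaling, 68 with the series table and 385 with no filter, and ranged from 89, without B7, to 201, without B8. More genes entered the test with no filter (15668), and for the other settings the cause was not tested. With spots below their own noise left out, the differences of Isg15, Oaz1 and Rpl11 became 0.22, -0.13 and -2.83. In that setting a dim probe can drop out on some arrays only, so bright and dim probes are averaged unevenly. No probe of these genes had the reversed sign. The probes of Isg15 differed by -0.74 and -0.73, of Oaz1 by 0.02 and 1.76 and of Rpl11 by 0.006 and 1.45. The reversed values therefore give no direction. The difference of Fabp6 ran from -5.85 without B8 to 0.66, reversed, without B10. Relative to the median of all genes, the antigen presentation, B cell, sugar, brush border, amino acid transporter, retinoid, Paneth, enteroendocrine and clock lists kept the sign of their median in all 17 alternatives. Many other lists did so too, among them the mitochondrial ribosomal proteins and the goblet cell list, which held no called member. A kept sign is therefore not particular to the lists named. The interferon list turned in 1, without B8, to -0.02, and the T cell list in 2. No paired analysis was possible because feeds K and B share no replicate number. A slide or scan block was not run, since the files give no batch that holds more than 1 array. Signal over noise limits what can be seen of the 7106 genes that were not tested, of which 4122 were detected on no array.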
